A study of Mus musculus with 17 samples.

Results

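The genes described here encode the proteins of the cytosolic ribosome. They were taken by symbol, as every row of the count table named Rpl or Rps followed by a number and, where present, 1 of the letters a, x, y or l, together with Rpsa and the Rplp genes. This rule used no expression value and gave 83 genes of the 22253 in the table, made up of 31 genes of the small (40S) subunit, 43 of the large (60S) subunit, 3 of the ribosomal stalk and 6 second copies of another member (Rpl3l, Rpl7l1, Rpl10l, Rpl22l1, Rpl39l and Rps27l). The kinases of ribosomal protein S6, Fau and annotated pseudogenes were not members. RNA was measured in 17 SMART-Seq libraries, each a pool of 10 to 15 retinal pigment epithelium (RPE) cells by the labels (the methods of the study give smaller pools), picked by hand from mice aged 2 months. All mice carried 1 Serpine3 allele with GFP placed at the start codon (Serpine3GFP/+) on the C57BL6/J background, so the GFP–-RPE cells shared the genotype of the GFP+-RPE cells and no untargeted mice were compared. Peripheral GFP+-RPE had 6 libraries, peripheral GFP–-RPE 5 and central GFP–-RPE 6, from 7 numbered mice, of which 5 gave all 3 groups and mouse 1 carries 2 animal numbers. The comparisons ask whether RPE cells of the periphery that use Serpine3 differ from central RPE and from their peripheral neighbors.

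Each ribosome is built from 1 small and 1 large subunit, and nearly every ribosomal protein is present once, so cells need these proteins in matched amounts. Their mRNAs are short and abundant and mostly begin with a 5′ terminal oligopyrimidine (TOP) tract, a C followed by a run of pyrimidines, through which the TOR kinase and the RNA-binding protein LARP1 set their translation. RPE cells are postmitotic, pigmented cells that recycle retinoids and take up shed photoreceptor outer segments each day.

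The TOP tract is a feature of these genes that the rule did not use. RefSeq start sites (GRCm38.p6) were at hand for 63 of the 83 genes. A C at the annotated start followed by at least 4 pyrimidines (C or T) was present in 13 of the 63 (20.6%), against 3.0% of 27025 promoters, and a tract beginning within 5 bases of the start in 46.0% against 21.2%. The windows below run from 15 bases before the annotated start to 15 bases from it, on the coding strand, with the uninterrupted pyrimidines from the start in capitals. They show 5 genes whose annotated start opens a tract and 3 whose values are followed below and whose start does not.
Rps6, chr4:86857353-86857382, minus strand: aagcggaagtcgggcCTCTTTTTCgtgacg
Rps27, chr3:90213634-90213663, minus strand: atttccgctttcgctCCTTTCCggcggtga
Rpl28, chr7:4792950-4792979, plus strand: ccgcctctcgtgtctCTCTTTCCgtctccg
Rpl38, chr11:114668565-114668594, plus strand: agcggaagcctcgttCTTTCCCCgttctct
Rplp2, chr7:141447636-141447665, plus strand: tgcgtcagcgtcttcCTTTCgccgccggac
Rpl22, chr4:152325711-152325740, plus strand: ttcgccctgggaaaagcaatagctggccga
Rpl22l1, chr3:28805493-28805522, plus strand: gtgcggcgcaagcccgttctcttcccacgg
Rpl7l1, chr17:46782642-46782671, minus strand: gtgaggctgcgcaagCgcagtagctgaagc
RefSeq gives Rpl22 a further start upstream, also without a tract, and the annotated start may lie a few bases from the one used in RPE. In the 300 bases around the start (250 before, 50 after, both strands), the ETS motif CCGGAAG was present in 41.3% of the 63 genes against 9.9% of all promoters, the GC box GGGCGG in 61.9% against 38.2%, the YY1 motif AAGATGGC in 9.5% against 3.2% and TATAAA in 11.1% against 15.7%. These are matches of letters, which may overlap one another, and not measured sites.

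Total counts per library ranged from 9896118 to 22467079. Serpine3 had 107 to 576 counts in the 6 GFP+-RPE libraries, 0 to 5 in peripheral GFP–-RPE and 0 in every central library, so the labels held. Of 18 RPE markers looked for, 17 exceeded 3 counts in at least 1 library and 16 did so in every library. Together the 18 took 3.02% to 10.6% of the counts, least in central mouse 5. Of the markers of other cells, the photoreceptor list summed to 88.6 to 312 CPM (counts scaled to a fixed library total), the endothelial list to 0.0804 to 22.9 CPM with Cldn5 at 0 throughout, and C1qa, C1qb and Lyz2 of the macrophage list were at 0 in all 17 libraries. The stroma list summed to 168 to 704 CPM in GFP+-RPE, 122 to 234 in peripheral GFP–-RPE and 1.21 to 237 in central GFP–-RPE, the macrophage list to 45.6 to 120, 120 to 137 and 49.6 to 127 CPM, and the Müller glia list, which holds Rlbp1 of RPE itself, to 8153 to 10270, 5772 to 10810 and 4183 to 10890 CPM. Of 8 markers in each list, 4 endothelial, 2 macrophage and 6 stroma markers exceeded 3 counts in at least 1 library. So did 12 of 14 photoreceptor and 6 of 7 Müller glia markers. In every library 1 macrophage, 3 photoreceptor and 5 Müller glia markers exceeded 3 counts, against 0 of the endothelial and 0 of the stroma list. The part of these lists in the results below was not tested. The central libraries of mice 5 and 7 had the highest shares of counts from the 13 mitochondrially encoded genes, at 47.3% and 37.0%. They also had the fewest genes at 10 counts or more, 5392 and 6430, against 6681 to 10543 in the other libraries. Central mouse 4 was near mouse 7, with 32.4% and 6681 genes, and was kept. Its ribosomal protein genes summed to 16090 CPM on the scaling used below, the highest of the 17 libraries. Group differences against central GFP–-RPE are given with and without the libraries of mice 5 and 7.

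RPE pools held RNA of 80 of the 83 genes, each with at least 12 counts in every library, and all 80 entered every test. The 3 others were second copies. Rpl3l, a form of Rpl3 known from striated muscle, and Rpl10l, a form of Rpl10 known from testis, had 0 counts in all 17 libraries, which allows up to 0.134 to 0.303 CPM per library. Rpl39l, another testis form, had 2 counts in each of 2 GFP–-RPE libraries and 0 in the others.

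Levels between genes were compared as CPM divided by the length of the shortest principal transcript in kilobases, averaged over the 17 libraries. Over the 80 genes this ran from 24.3 to 1190 CPM per kilobase with a median of 197. Rpl41, which encodes the smallest ribosomal protein, was highest at 1190, followed by Rpl38 at 674, Rps29 at 672, Rpl37a at 530 and Rps25 at 446. The lowest were Rps20 at 24.3, Rpl10 at 34.9 and Rps27 at 40.4. The transcript model of Rps20 is 3706 bases long, against a median of 729 over the genes, which lowers its value.

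The low levels of Rps27 and Rpl10 went with near-identical copies that are separate rows of the table. Rps27rt, whose coding sequence is 100% identical to that of Rps27, held 91.0% of the counts of both rows (37259 against 3679), and Rpl10-ps3, also 100% identical, held 83.9% of the counts shared with Rpl10 (39492 against 7580). The split varied between libraries. Rps27 took 0.763% to 16.8% of the Rps27 and Rps27rt counts in GFP+-RPE, 2.81% to 7.84% in peripheral GFP–-RPE and 3.74% to 16.9% in central GFP–-RPE. Rpl10 took 1.42% of its sum in central mouse 7 and 30.8% in central mouse 5, with the other libraries in between. Gm2000 held 37555 counts against 25058 of Rpl35, and Gm5148 11040 against 24511 of Rps23. In the annotation, 77 of the 83 genes had at least 1 copy at 95% identity over 90% of the coding sequence (median 5, highest 56, for Rpl21), of which 13 genes had a copy named in the table. Copies also lie in rows with other gene names. These had 109300 counts (BC004004) against 42646 of Rpl21, 23744 (Ciapin1) against 30786 of Rpl7a and 16052 (Med21) against 17300 of Rps26. Wdr89 had 4333 against 31849 of Rplp2. Such rows were not added where copies were summed, and how much of them is the copy is not known. Fold changes of genes with copies in the table are therefore uncertain, most of all those of Rps27 and Rpl10.

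**Figure D1:**
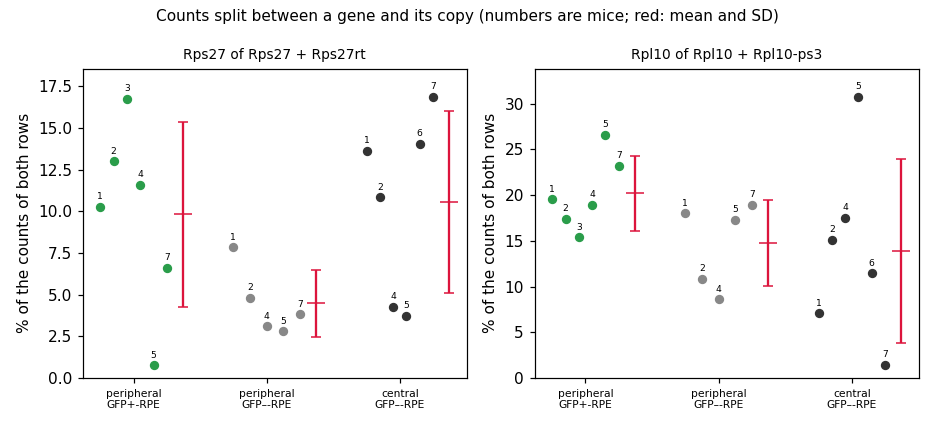
Percent of the counts of both rows that fell on Rps27 (left, against Rps27rt) and on Rpl10 (right, against Rpl10-ps3), 1 point per library with its mouse number, and the mean and SD of each group in red. Rps27 held between 0.763% and 16.9% and Rpl10 between 1.42% and 30.8%, and the groups overlap in both.

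The ribosomal protein genes took 1.25%, 1.46%, 1.63%, 1.19%, 1.15% and 1.36% of all counts in GFP+-RPE of mice 1, 2, 3, 4, 5 and 7, a mean of 1.34% ± 0.183 (SD, n = 6). In peripheral GFP–-RPE the share was 1.58%, 1.43%, 1.16%, 1.10% and 0.869% in mice 1, 2, 4, 5 and 7 (1.23% ± 0.281, SD, n = 5). In central GFP–-RPE it was 0.666% at the lowest, 1.19% at the median and 1.47% at the highest (1.13% ± 0.327, SD, n = 6). The 3 groups overlap, and the lowest values belong to central mice 5 and 7 and to peripheral GFP–-RPE of mouse 7.

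The order of the groups turned with the denominator. Mitochondrially encoded genes took 0.710% to 17.2% of counts in GFP+-RPE, 12.5% to 30.4% in peripheral GFP–-RPE and 13.7% to 47.3% in central GFP–-RPE. As a share of the counts that are not mitochondrially encoded, the ribosomal protein genes made up 1.46% ± 0.181 in GFP+-RPE, 1.53% ± 0.282 in peripheral GFP–-RPE and 1.57% ± 0.231 in central GFP–-RPE (SD, n = 6, 5 and 6). GFP+-RPE was thus 0.21 percentage points above central GFP–-RPE on all counts and 0.11 points below it on the rest. Both differences are smaller than the SD within the central group. Without the central libraries of mice 5 and 7 the first was 0.0165 points, and that of peripheral minus central GFP–-RPE went from 0.0964 to −0.0945 points (both chosen after seeing the data). In a pool of cells, a lower share cannot be told apart from more RNA of other genes.

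The share also went with the run of animal numbers, which fall into 2 series (mice 1 to 3 and mice 4 to 7). It was 1.43% to 1.58% in peripheral GFP–-RPE of the first run and 0.869% to 1.16% in the second, 1.45% to 1.47% and 0.666% to 1.25% in central GFP–-RPE, and 1.25% to 1.63% and 1.15% to 1.36% in GFP+-RPE. Within the first run GFP+-RPE minus central GFP–-RPE came to −0.0127 points (3 against 2 libraries), and within the second 0.264 points (3 against 4). Against peripheral GFP–-RPE the differences were −0.0593 and 0.189 points, and for peripheral against central GFP–-RPE 0.0467 and 0.0750 points. The labels do not say what the runs are, and their part in the result was not tested.

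**Figure D2:**
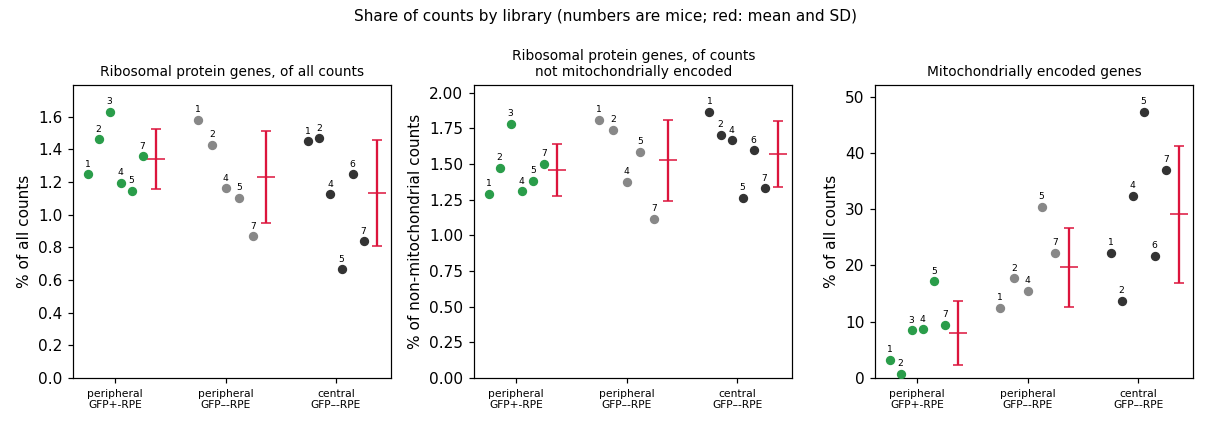
Percent of counts per library from the 83 ribosomal protein genes, of all counts (left) and of counts that are not mitochondrially encoded (middle), and percent of all counts from the 13 mitochondrially encoded genes (right), by group, with mouse numbers and the mean and SD in red. On all counts the mean is 1.34% in GFP+-RPE and 1.13% in central GFP–-RPE, and on the rest 1.46% and 1.57%.

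The proportion of the 2 subunits ran from 0.595 to 0.722 over the 17 libraries, and was not compared with that of other gene sets. The summed counts of the 31 small subunit genes were 0.617 to 0.690 of those of the 43 large subunit genes in GFP+-RPE (mean 0.658 ± 0.0318, SD, n = 6), 0.596 to 0.660 in peripheral GFP–-RPE (0.633 ± 0.0259, SD, n = 5) and 0.595 to 0.722 in central GFP–-RPE (0.628 ± 0.0472, SD, n = 6). Central mouse 1 was the highest of the 17 libraries and the groups overlap.

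Single genes varied to very different degrees. The SD of log2(CPM + 1) over the 17 libraries, with CPM scaled by the trimmed mean of M values (TMM), had a median of 0.44 over the 80 genes and ran from 0.24 to 1.23. The steadiest were Rps24 (0.24, from 141 to 243 CPM), Rpl7 (0.26), Rpl41 (0.27), Rpl9 (0.28) and Rps15 (0.30). Among the most variable were Rpl7l1 (1.23), Rpl23 (1.23), Rps27 (1.12) and Rpl10 (1.03). The extremes of Rpl23 and Rpl7l1 came from a single library. Rpl23 was 3.51 CPM and Rpl7l1 2.59 CPM in central mouse 5, and the other 16 libraries reached down only to 53.9 and 28.4 CPM. In that library 11 of the 77 members without second copies were more than 2-fold below their own mean on this scale, and 6 were in central mouse 7 and in peripheral GFP–-RPE of mouse 7, against 0 to 4 in the other 14. More than 2-fold above their mean were 5 members in central mouse 5, 5 in central mouse 4, 3 in central mice 6 and 7 each, and 0 or 1 in the other 13.

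Within groups, pairs of these genes correlated somewhat more than pairs of all genes. After the group means were taken out, the 3160 pairs of the 80 genes had a median Pearson correlation of 0.18 over the 17 libraries, and 70.5% of the pairs were above 0, against a median of 0.05 and 55.9% for all pairs of the 9286 genes tested in GFP+-RPE against central GFP–-RPE. All pairs share libraries and scaling, the pairs of all genes were not matched to the 80 for level, and no test was made.

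**Figure D3:**
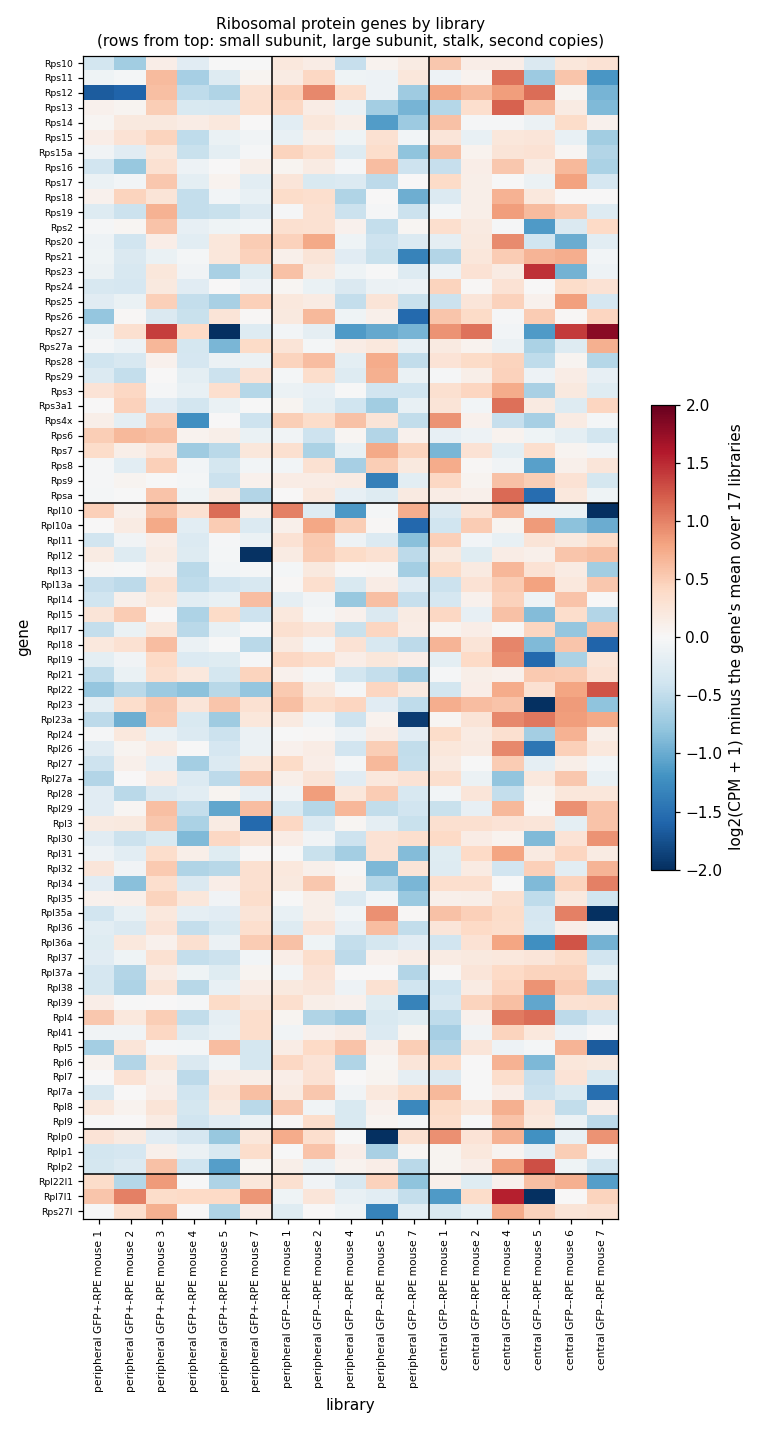
log2(CPM + 1) of 78 of the 80 tested genes (rows) in the 17 libraries (columns), minus each gene's mean over the libraries; red is above and blue below that mean. The Rpl22 row is blue in all 6 GFP+-RPE libraries. Deep blues include Rpl23 and Rpl7l1 in central mouse 5, at 3.51 and 2.59 CPM. They also include Rps27 in GFP+-RPE of mouse 5 (1.13 CPM) and Rplp0 in peripheral GFP–-RPE of mouse 5 (30.0 CPM).

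Peripheral GFP+-RPE was compared with central GFP–-RPE first. Most ribosomal protein genes had a somewhat lower level in GFP+-RPE once libraries were scaled by TMM, and none passed the test in edgeR. The log2 fold change was below 0 for 70 of the 80 genes (87.5%), against 49.9% of all 9286 genes tested, with a median of −0.30 against 0.00 for all genes. How this compared with all genes depended on the fit. By DESeq2 the median was −0.30 against −0.41 for all genes, and by edgeR with no filter −0.18 against −0.21. With mouse as a block it was −0.31 against 0.58. Scaled by library totals alone, 11 of the 80 were below 0 (13.8%) against 25.3% of all genes, the median was 0.21 against 0.48, and 2 were higher (5.46% of all genes tested) and 0 lower (1.54%) at an unadjusted p under 0.05. The small subunit had 29 of 31 genes below 0 (median −0.28), the large subunit 36 of 43 (median −0.35) and the stalk 3 of 3 (median −0.52). By edgeR's quasi-likelihood test, where a call needs a log2 fold change beyond 1 in either direction and a Benjamini-Hochberg adjusted p below 0.01, 0 of the 80 were called (0.0431% of all genes tested were). At an unadjusted p under 0.05, 5 were lower (3.66% of all genes tested) and 0 higher (2.14%), so that the 6.25% of the 80 on the lower side is 5 genes.

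The lowest fold change was that of Rpl22, which encodes a large subunit protein at the surface of the ribosome (chr4:152325742-152334071, GRCm38). In GFP+-RPE it had 26.6 CPM at the lowest, 27.9 at the median and 32.4 at the highest, and in central GFP–-RPE 36.8, 69.6 and 115 CPM. Every GFP+-RPE library lay below every central library, and Rpl22 was the 1 gene of the 80 whose groups did not overlap with GFP+-RPE lower (0.269% of all genes tested), with 0 higher (0.862%). On library totals alone the ranges did overlap, at 30.5 to 42.4 and 32.1 to 83.8 CPM, and on counts without mitochondrially encoded genes they did not, at 32.6 to 42.7 and 54.7 to 133 CPM. The log2 fold change was −1.35 (SE 0.44), with an adjusted p of 0.33 by edgeR. DESeq2 called it, at −1.34 (SE 0.33) with an adjusted p of 0.00465, as the 1 call among the ribosomal protein genes (1.21% of all genes were called by DESeq2). Over 26 alternative fits the log2 fold change ran from −1.44 to −0.77, and the adjusted p from 0.00465 to 0.915, with DESeq2 the only one to call it.

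The next lowest were Rps12 and Rpl23a. Rps12, of the small subunit, had 15.6, 34.9 and 78.6 CPM at the lowest, median and highest in GFP+-RPE and 26.6, 84.5 and 113 CPM in central GFP–-RPE, a log2 fold change of −0.99 (SE 0.52, edgeR adjusted p = 0.967). Rpl23a, which sits at the exit of the peptide tunnel (chr11:78180932-78183584), had 62.9, 93.9 and 181 CPM in GFP+-RPE and 128, 217 and 261 CPM in central GFP–-RPE, a log2 fold change of −0.98 (SE 0.32, edgeR adjusted p = 0.334). The groups overlap for both genes. Exons of Rpl23a overlap Tlcd1 on the other strand, and whether counting used the strand is not given in the sources used here.

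Rpl13a and Rpl37a, both of the large subunit, were also under an unadjusted p of 0.05; Rpl13a was picked out after its values were seen. Rpl13a had 157 CPM at the median in GFP+-RPE and 279 in central GFP–-RPE (log2 fold change −0.75, SE 0.27, edgeR adjusted p = 0.461). Rpl37a had 257 and 362 CPM (−0.48, SE 0.22, edgeR adjusted p = 0.819). On the other side were Rpl10 (0.57, SE 0.72), whose counts are split with its copy, Rps6 (0.40, SE 0.23) and Rpl7l1 (0.39, SE 0.58). Rps6, the small subunit protein that S6 kinases phosphorylate, ran from 235 to 409 CPM in GFP+-RPE and from 201 to 271 CPM in central GFP–-RPE. Its highest 3 values were those of GFP+-RPE from mice 1, 2 and 3.

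**Figure D4:**
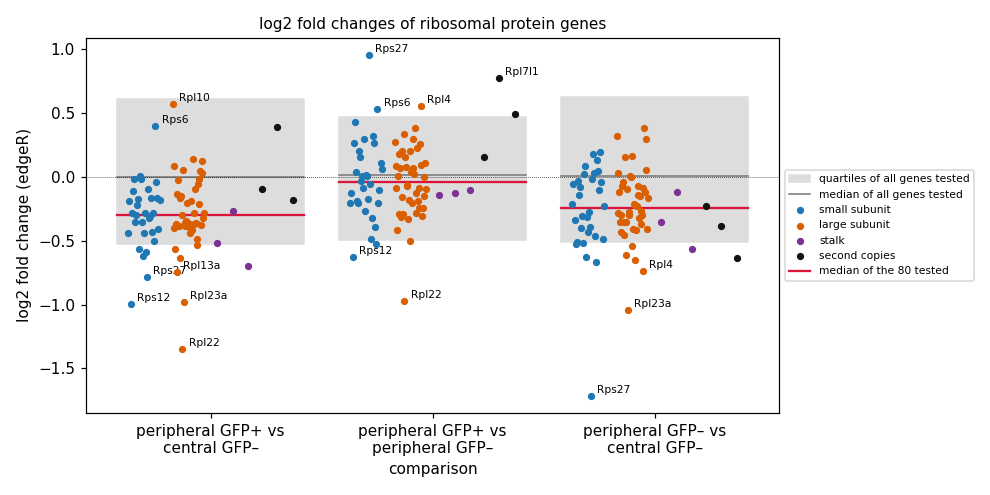
log2 fold changes (edgeR) of the 80 tested ribosomal protein genes in the 3 comparisons, colored by subunit, with their median in red over the quartiles (grey band) and the median (grey line) of all genes tested. The red line is at −0.30, −0.04 and −0.25 with TMM scaling; on library totals alone it is at 0.21, 0.10 and 0.10, with all genes at 0.48, 0.16 and 0.32.

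Within the periphery, the ribosomal protein genes of GFP+-RPE lay on both sides of those of GFP–-RPE, with Rpl22 the lowest in GFP+-RPE and Rpl7l1 among the highest. Of the 80 genes, 42 were below 0 (49.2% of all 10102 genes tested were), with a median of −0.04 against 0.01 for all genes; on library totals 29 were below 0 (36.3%, against 40.9% of all genes) and the medians were 0.10 and 0.16. By DESeq2 the median was −0.06 against −0.23 for all genes. By edgeR 0 were called (0.0396% of all genes tested). At an unadjusted p under 0.05, 2 were lower (2.83% of all genes) and 3 higher (2.75%), which is 2.50% and 3.75% of the 80.

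Rpl22 had 68.7, 54.5, 46.8, 64.6 and 54.7 CPM in peripheral GFP–-RPE of mice 1, 2, 4, 5 and 7, all above the 26.6 to 32.4 CPM of GFP+-RPE. It was the 1 gene of the 80 that lay lower without overlap (0.663% of all genes tested). The ranges stayed apart on library totals and without mitochondrially encoded genes. The log2 fold change was −0.97 (SE 0.32) with an adjusted p of 0.64 by edgeR, and −0.98 (SE 0.18) with an adjusted p of 2.15e-05 by DESeq2, just short of the fold limit for a call. DESeq2 called 0 of the genes here (0.406% of all genes).

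Rpl7l1, a relative of Rpl7 known for a part in ribosome assembly (chr17:46773907-46782672), had 93.9, 130, 82.7, 84.3, 84.1 and 119 CPM in GFP+-RPE of mice 1, 2, 3, 4, 5 and 7 and 60.4, 75.9, 57.3, 54.9 and 45.6 CPM in peripheral GFP–-RPE of mice 1, 2, 4, 5 and 7. It was the 1 gene of the 80 that lay higher without overlap (0.624% of all genes tested), also on both other scales. Its log2 fold change was 0.78 (SE 0.26) with an adjusted p of 0.64 by edgeR, and 0.77 (SE 0.21) with an adjusted p of 0.0341 by DESeq2. Central GFP–-RPE spanned 2.59 to 189 CPM and overlapped both. Rpl7 itself overlapped between the groups, at 196 ± 34.0 CPM in GFP+-RPE, 199 ± 23.2 in peripheral GFP–-RPE and 185 ± 43.5 in central GFP–-RPE (SD, n = 6, 5 and 6).

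Rps6 and Rpl4 were the other 2 with higher values. Rps6 had 246, 193, 267, 173 and 274 CPM in peripheral GFP–-RPE of mice 1, 2, 4, 5 and 7, against a median of 322 in GFP+-RPE (log2 fold change 0.53, SE 0.21, edgeR adjusted p = 0.77). Rpl4, a large subunit protein that lines the peptide tunnel, had 125 to 255 CPM in GFP+-RPE and 107 to 184 CPM in peripheral GFP–-RPE (0.55, SE 0.24, edgeR adjusted p = 0.808). Both overlap between the groups. Rps27 had the highest fold change (0.96, SE 0.94), but with the counts of Rps27rt added it was −0.21. Rps12 (−0.63, SE 0.46) was the lowest after Rpl22, and Rpl28, picked out after its values were seen, had 132 CPM at the median against 181 (−0.50, SE 0.23, edgeR adjusted p = 0.884).

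Peripheral and central GFP–-RPE cells, which differ in place alone by the labels, gave 64 of 80 genes below 0 in the periphery (49.6% of all 9535 genes tested), with a median of −0.25 against 0.01 for all genes; on library totals 27 were below 0 (33.8%, against 31.7%) and the medians were 0.10 and 0.32. By edgeR 0 genes were called, as were 0 of all genes tested (0%), and DESeq2 called 0 of the 80 (0.169% of all genes). At an unadjusted p under 0.05, 1 was lower (1.67% of all genes) and 0 higher (1.03%). No gene had groups apart, lower (0.115% of all genes) or higher (0.64%).

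The 1 lower gene was Rpl23a, at 141, 120, 93.1, 132 and 32.7 CPM in peripheral GFP–-RPE of mice 1, 2, 4, 5 and 7, against 128, 217 and 261 CPM at the lowest, median and highest in central GFP–-RPE (log2 fold change −1.04, SE 0.39, edgeR adjusted p = 1.00, unadjusted p = 0.0154). The ranges overlap through the central library of mouse 1. For GFP+-RPE against peripheral GFP–-RPE the log2 fold change of Rpl23a was 0.08 (SE 0.37). Rps27 was lowest (−1.72, SE 1.08), and −0.40 with Rps27rt added, followed after Rpl23a by Rpl4 (−0.73, SE 0.38). Rpl5 (0.38, SE 0.36), which binds the 5S rRNA, Rpl10 (0.32, SE 0.89) and Rpl7a (0.30, SE 0.38) were highest. Rpl10 and Rpl7a have near-identical copies in other rows, as given above. Both comparisons with central GFP–-RPE share its 6 libraries. Without the central libraries of mice 5 and 7, the median was −0.35 for GFP+-RPE (70 of 80 below 0) and −0.25 for peripheral GFP–-RPE (63 of 80), and 0 genes were called.

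**Figure D5:**
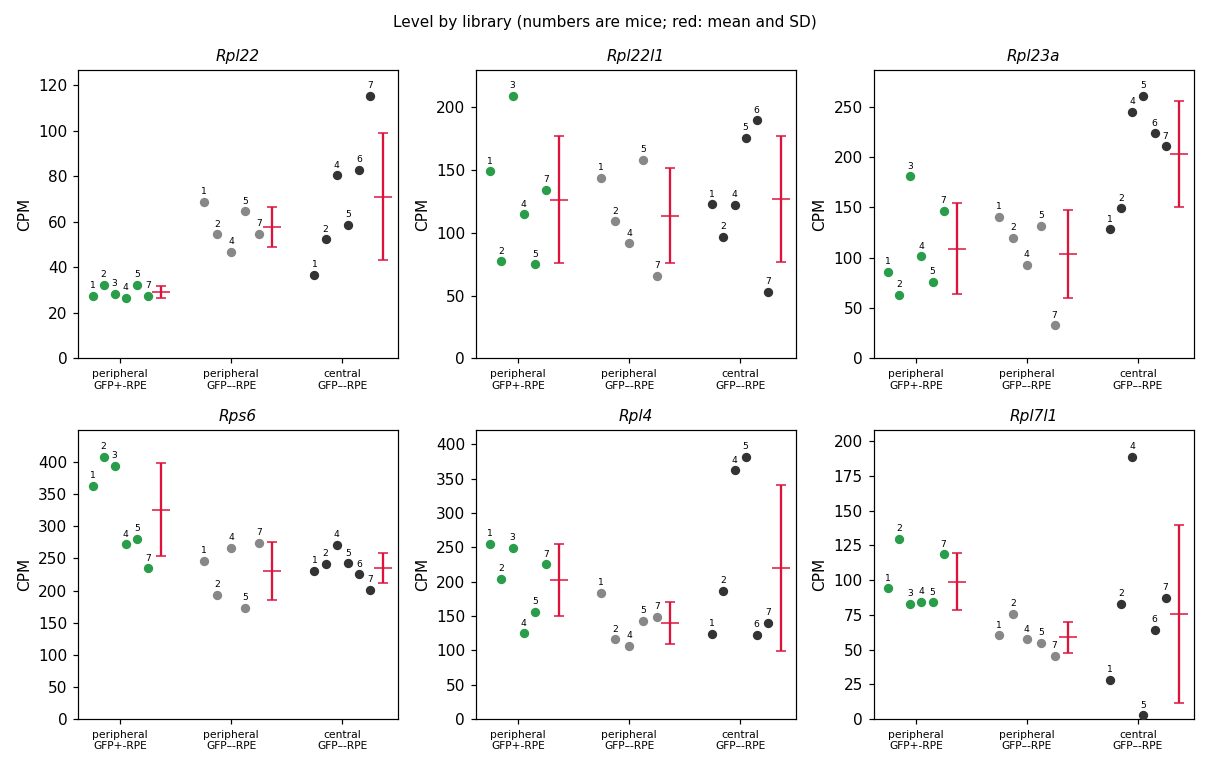
CPM (TMM-scaled) of Rpl22, Rpl22l1, Rpl23a, Rps6, Rpl4 and Rpl7l1 by group, 1 point per library with its mouse number, and the mean and SD in red. Rpl22 lies between 26.6 and 32.4 CPM in the 6 GFP+-RPE libraries and at 36.8 CPM or more in the 11 others.

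Rpl22l1, the second copy of Rpl22, overlapped between all 3 groups. It can take the place of Rpl22 in the ribosome, and loss of Rpl22 is known to raise it in other cells. Rpl22l1 had 127 ± 50.3 CPM in GFP+-RPE, 114 ± 37.9 in peripheral GFP–-RPE and 127 ± 50.3 in central GFP–-RPE (SD, n = 6, 5 and 6), with log2 fold changes of −0.09 (SE 0.36), 0.16 (SE 0.31) and −0.23 (SE 0.40) in the 3 comparisons in the order above. Counts of Rpl22l1 per count of Rpl22 were 5.42, 2.38, 7.40, 4.32, 2.32 and 4.88 in GFP+-RPE of mice 1, 2, 3, 4, 5 and 7, 2.09, 2.00, 1.95, 2.45 and 1.20 in peripheral GFP–-RPE of mice 1, 2, 4, 5 and 7, and 0.460 to 3.34 in central GFP–-RPE. GFP+-RPE of mice 2 and 5 lay within the range of the other groups and the other 4 above it. Rpl22 was also steady among GFP+-RPE libraries, with a coefficient of variation of 8.80%, and 1 of the 80 genes varied less there (Rps14, with a median of 22.9% over the 80). In peripheral GFP–-RPE it was 15.1% against a median of 24.4%, and 12 of the 80 varied less. In central GFP–-RPE it was 39.1%, where the median was 31.4%. An exon of Rpl22l1 overlaps Gm33051 on the other strand.

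Rps27l, the second copy of Rps27 and a target of p53 in other cells, was abundant, at 222 ± 65.1 CPM in GFP+-RPE, 162 ± 48.2 in peripheral GFP–-RPE and 239 ± 62.9 in central GFP–-RPE (SD, n = 6, 5 and 6). It had 0.887 to 2.44 counts per count of Rps27 and Rps27rt together in GFP+-RPE, 0.473 to 1.37 in peripheral GFP–-RPE and 0.831 to 2.42 in central GFP–-RPE. Its log2 fold change was 0.49 (SE 0.27) for GFP+-RPE against peripheral GFP–-RPE and −0.64 (SE 0.31) for peripheral against central GFP–-RPE, with edgeR adjusted p of 0.956 and 1.00. Rpl3 (105 ± 43.9, 103 ± 25.3 and 130 ± 21.5 CPM) and Rpl39 (138 ± 16.4, 117 ± 42.2 and 139 ± 49.0 CPM), the parents of the copies that were not detected, overlapped between the groups.

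The stalk genes Rplp0, Rplp1 and Rplp2 encode the flexible arm of the large subunit that recruits elongation factors. Their summed level was 400.3 ± 83.5 CPM in GFP+-RPE, 445 ± 110 in peripheral GFP–-RPE and 528 ± 50.8 in central GFP–-RPE (SD, n = 6, 5 and 6). Against central GFP–-RPE, GFP+-RPE had log2 fold changes of −0.52 (SE 0.34) for Rplp0, −0.27 (SE 0.24) for Rplp1 and −0.69 (SE 0.37) for Rplp2, with edgeR adjusted p from 0.977 to 1.00. Rplp0 was 30.0 CPM in peripheral GFP–-RPE of mouse 5 and 60.1 CPM in central mouse 5, against 82.5 CPM or more in the other 15 libraries.

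Genes with a TOP tract at the annotated start were compared with those without, as a description. Because the annotated start may lie a few bases from the one used, genes without a tract there can still be TOP genes. The split is therefore by annotated start and does not separate TOP mRNAs from others. The first comparison gave the 13 with a tract a median log2 fold change of −0.35 (11 below 0) and the 47 others tested one of −0.28 (40 below 0). Against peripheral GFP–-RPE the medians were 0.07 and −0.03, and for peripheral against central GFP–-RPE −0.22 and −0.29. Rps6 and Rpl38, whose tracts are shown above, had 0.40 and −0.53 in the first of these.

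Other genes of translation were looked at by list. Of 22 other TOP genes, which include the elongation factors, GFP+-RPE had 14 below 0 against central GFP–-RPE (median −0.15) and 12 against peripheral GFP–-RPE (median −0.03), with 1 call. That call was Vim, the filament protein vimentin, whose mRNA is also of the TOP kind and which is counted among Müller glia markers too. Vim had 114, 168 and 216 CPM at the lowest, median and highest in GFP+-RPE, 21.4, 31.7 and 51.1 CPM in peripheral GFP–-RPE and 25.3, 75.5 and 142 CPM in central GFP–-RPE. GFP+-RPE lay above peripheral GFP–-RPE without overlap (log2 fold change 2.33, SE 0.30, edgeR adjusted p = 0.00392) and overlapped central GFP–-RPE (1.12, SE 0.39, edgeR adjusted p = 0.42). The call did not hold with mouse as a block (2.24, edgeR adjusted p = 0.1), with all 3 groups in the fit (2.31, edgeR adjusted p = 0.206) or when the 2 series of animals entered as a covariate (2.26, edgeR adjusted p = 0.0109). On the mice of the block fit, but without the block, it held (2.25, edgeR adjusted p = 0.00897). The call was also lost in 7 of 11 fits that left out 1 library, in which the adjusted p of edgeR reached 0.0254. These left out mice 1, 2 and 4 of GFP+-RPE and mice 1, 2, 5 and 7 of peripheral GFP–-RPE. In the same fits 22 and 16 of 38 initiation factors were below 0 (medians −0.06 and 0.11), 23 of 46 and 16 of 49 genes of ribosome biogenesis (medians 0.03 and 0.20) and 10 and 11 of 17 regulators of TOR and TOP translation (medians −0.17 and −0.27), with 0 calls. For peripheral against central GFP–-RPE the counts were 13 of 22, 21 of 38, 23 of 46 and 9 of 17, also with 0 calls. Eef1b2 (−0.95, SE 0.45), a subunit of the elongation factor that loads tRNA, and Eif5a (0.70, SE 0.27) were among those at an unadjusted p under 0.05 against central GFP–-RPE, on opposite sides.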

How the data were processed

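The authors deposited estimated counts per gene symbol, as whole numbers without normalization, from 50 bp single-end SMART-Seq reads, so no rounding changed them. The submitters' processing notes name fastp, Salmon and GRCm38.p6, without roles or versions. How reads of near-identical copies were shared, and whether strand was used, is not given in the sources used here. Each of the 17 columns carries the title of its sample, and 0 columns were left unused.

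Results for some single genes are not reported here. The 83 genes and the other lists were chosen with earlier results of these data known. Genes were tested with edgeR (version 4.0.16, R 4.3.3), using filterByExpr, TMM and the quasi-likelihood test on the libraries of the 2 groups compared. Adjustment was over all genes tested, and the SE of edgeR is the log2 fold change over the root of the F statistic. DESeq2 (version 1.42.0) was run as an alternative. The edgeR procedure was tested on simulated data, where a pass was required only at a low spread between libraries. How well it finds changes at the spread of these pools is not given here. CPM used TMM over all 17 libraries. Named are the second copies with their parents, the stalk genes, per comparison the 3 highest and 3 lowest fold changes (mean of at least 10 counts), genes called or with groups apart, and the 5 highest and lowest by level per length and by variability (mean of at least 10 CPM). Positions and copies come from GENCODE M21 (GRCm38) and BLAST (version 2.17.0), start windows from RefSeq. Pairs of libraries were formed by mouse number. Mouse 1 stands for 2 animal numbers, so whether its pools share 1 animal is not known. Deviations of the paired libraries from the group means correlated at −0.0157 to 0.101 over all genes tested in the first comparison, with 5 pairs per comparison. Over the ribosomal protein genes alone they correlated at −0.218 to 0.256. Over 136 pairs of libraries the highest correlation of log2(count + 1) was 0.924. Replicates are separate pools, 1 per mouse number and group. PCR copies were counted, so limits from 3 counts cover counting error only.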

Additional observations from a re-analysis of the deposited data

Results flagged for a closer look

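Rps27l in peripheral GFP–-RPE of mouse 5, at 78.8 CPM, lay far from the other 4 libraries of its group, which had 169 to 202 CPM. It was the 1 library apart among 93 groups of values examined by Dixon's criterion, fewer than the 1 in 20 that chance gives. Without it the log2 fold change of Rps27l in GFP+-RPE against peripheral GFP–-RPE was 0.34, in place of 0.49.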

How the results depend on the processing

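Calls among the ribosomal protein genes stayed at 0 in every comparison under all alternatives run except DESeq2, which called 1 gene, Rpl22, in GFP+-RPE against central GFP–-RPE. On library totals alone, the median log2 fold change turned to 0.21 (GFP+-RPE against central GFP–-RPE) and 0.10 (peripheral against central GFP–-RPE), by construction of the scaling, which moved all genes up with them. On counts that are not mitochondrially encoded, the differences in share turned to −0.114, −0.0686 and −0.0455 percentage points in the 3 comparisons. For peripheral against central GFP–-RPE the share difference also turned with medians, to −0.0266, and without the central libraries of mice 5 and 7, to −0.0945. Without those libraries the difference of GFP+-RPE from central GFP–-RPE shrank to 0.0165. Each of these was small against the spread between libraries. With each library left out in turn, calls stayed at 0 (0 to 0), medians ran from −0.33 to −0.24, from −0.12 to 0.04 and from −0.30 to −0.17, and share differences from 0.114 to 0.275, from 0.0209 to 0.2 and from 0.00298 to 0.187 percentage points. With the replicate block (mouse) the medians were −0.31, −0.07 and −0.18, with 0 calls, and no call among the ribosomal protein genes changed. The medians of all genes in those fits were 0.58 and 0.07 in the first 2 comparisons. Over all genes, calls went from 4 to 60, from 4 to 0 (Vim among those lost) and from 0 to 0 in the 3 comparisons. The fits with the block kept only mice with both groups compared. They therefore also left out GFP+-RPE of mouse 3 and central GFP–-RPE of mouse 6, so these changes are not those of the block alone. Among named genes at least 1 SE from 0, on library totals, Rpl3 (0.15), Rpl37a (0.054), Rpl38 (0.070), Rpl9 (0.24), Rplp1 (0.21), Rps24 (0.064), Rps25 (0.23) and Rps29 (0.20) turned in the first comparison and Rpl37a (0.010) in the third; Rps27 turned in the second with its copy added (−0.21). Named genes nearer to 0 also changed sign under some alternatives. Alternatives that leave out central mice 5 and 7, sum copies, or use the same mice without the block were chosen after seeing the data. Between 10 and 15 cells per pool and 5 or 6 pools per group limit what could be seen.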
